A study of Mus musculus with 14 samples.

Results

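The 10 genes described here encode proteins that start and carry out DNA replication: Mcm2, Mcm3, Mcm4, Mcm5, Mcm6, Mcm7, Cdc45, Gins2, Tyms and Ccne1. They were chosen by name and found in the deposited count table through the Ensembl identifiers that GENCODE M21 gives for these symbols. All 10 were among the 37409 genes of the table and among the 17141 genes that passed the filter on low counts. By edgeR's quasi-likelihood test Gins2 was lower than at day 0 in all 3 day 7 groups. Tyms was lower than at day 0 in the siNeg group, and no other member was called in any comparison. With limma voom, an alternative tool, Mcm7 and Ccne1 were also called lower than at day 0 in the siNeg group. In that comparison voom called 6945 of the 17141 genes and edgeR 3158, so these extra calls are not particular to the members. Over the other 8 genes the log2 fold changes against day 0 lay between -0.18 and 0.14. None of the 10 passed the test when an siRNA group was set against the vehicle, or when the siRNA groups were set against each other. Few of all 17141 genes did: 0.105% in siNeg and 0.0292% in siPD-L1 against the vehicle, and 0% between the siRNA groups.

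The 6 Mcm proteins form the ring that unwinds DNA at the replication fork. Inactive rings are loaded at origins in G1 phase, and in S phase each is switched on by Cdc45 and the GINS complex, of which Gins2 is a subunit. Cyclin E1, from Ccne1, activates the kinase Cdk2 at the start of S phase, and thymidylate synthase, from Tyms, makes the thymidine nucleotide needed only for DNA. Many of these genes are targets of E2F transcription factors, and their RNA is used as a sign of cycling cells in tumours. Paclitaxel, as which PTX in the group names is read here, binds microtubules and holds cells in mitosis.

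RNA was sequenced from subcutaneous tumours of C57BL/6 mice in 14 libraries. The siPD-L1 group (n = 4) was taken at day 7 after an injection into the tumour of 2E'/PTX/siPD-L1, that is, of an immunoactive polymer coded 2E' with paclitaxel and an siRNA against PD-L1. The siNeg group (n = 4, day 7) received 2E'/PTX with a negative-control siRNA, the D5W group (n = 3, day 7) received the vehicle, 5% dextrose in water, and the day 0 group (n = 3) was untreated. Injections were made at a tumour size of about 150 mm3, and the siRNA groups share the polymer and the drug, so neither the polymer nor paclitaxel is set apart by these groups. The day 7 groups differ from day 0 in both time and injection, which cannot be told apart here. The labels do not say that each library is a separate mouse, so the p-values speak only for the spread among these samples, which may be technical in part.

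The protocol names B16F10, a mouse melanoma line, while a cell type label names CT26, a mouse colon carcinoma line. Over 7 melanocyte markers the summed level was 17126 to 20477 CPM (read counts scaled to a common library total by TMM) in siPD-L1, 20080 to 21057 CPM in siNeg, 17038 to 20065 CPM in D5W and 18311 to 18986 CPM in day 0 tumours, and that of 7 intestinal epithelial markers was at most 9.80 CPM in every library. Library totals ran from 60166300 to 85941300 counts. Cd274, the gene of PD-L1, had 17.5 ± 2.25 CPM in siPD-L1, 24.9 ± 6.44 CPM in siNeg, 15.7 ± 2.50 CPM in D5W and 12.006 ± 0.431 CPM in day 0 tumours (SD, n = 4, 4, 3 and 3). Its log2 fold change in siPD-L1 against siNeg tumours was -0.50 ± 0.16 (edgeR quasi-likelihood unadjusted p = 0.00617, adjusted p = 0.515). Against day 0 it was 0.55 ± 0.17 in siPD-L1, 1.05 ± 0.18 in siNeg and 0.39 ± 0.18 in D5W tumours (adjusted p = 0.0366, 0.00139 and 0.143). D5W replicate 3 stood apart from the other libraries on the first principal component (31.2% of the variance), and in siPD-L1 replicate 1 the most abundant gene, Gm42418, took 9.71% of the counts. For the members, calls that end without either of them are named beside the result. For most genes of the other cell cycle lists, the libraries whose removal ends a call are pooled by list.

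Per kilobase of exon, the Mcm genes were the most abundant members. Median levels over the 14 libraries were 56.8 CPM per kb for Mcm2, 53.2 for Mcm3, 51.1 for Mcm6, 50.8 for Mcm5, 36.2 for Mcm4 and 35.1 for Mcm7. Ccne1 had 12.2, Cdc45 10.6, Tyms 7.93 and Gins2 4.00 CPM per kb. Mcm2, Mcm3, Mcm6 and Mcm5 overlapped in their ranges over the libraries, as did Mcm4 and Mcm7, while the lowest library of any Mcm gene, 30.9 CPM per kb for Mcm7, lay above the highest library of Ccne1, 14.4 CPM per kb. Divided by the length of the longest annotated transcript instead, Mcm2 stood further above the rest, at 113 CPM per kb, with Mcm5 next at 59.95, and Gins2 stayed lowest at 4.201. The ratio of the highest to the lowest library was between 1.22 for Cdc45 and 1.77 for Gins2.

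**Figure D1:**
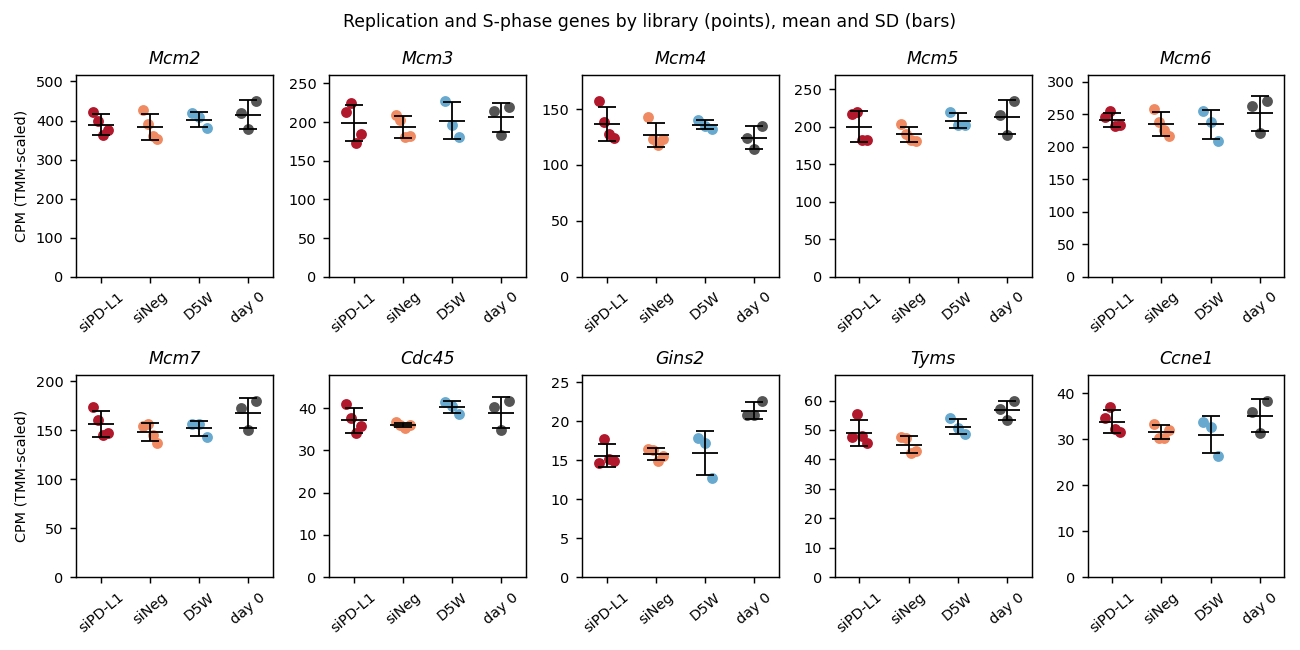
TMM-scaled CPM of the 10 replication and S-phase genes in each library (points) of the siPD-L1, siNeg, D5W and day 0 groups, with the group mean and SD (bars) and each axis starting at 0. Gins2 is the gene whose 11 day 7 libraries, 12.8 to 17.8 CPM, all lie below the 3 day 0 libraries, 20.7 to 22.6 CPM. The share of all genes that separate in this way was not counted.

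Members that share a regulator can share motifs before their start sites, and the promoter sequences show how far these genes do. RefSeq promoter windows (build GRCm38.p6, 250 bases before to 50 bases after a transcript start) matched 8 of the 10 members by symbol. Mcm4 and Gins2 had no window and were not searched. Each was searched on both strands for the E2F-like motifs TTTGGCGC, TTTCGCGC, TTTCCCGC and TTTGCCGC. At least 1 of these was found in a window of Mcm3, Mcm5, Mcm6 and Mcm7, and in none of Mcm2, Cdc45, Tyms and Ccne1. Of all 32851 RefSeq windows, 2.26% held at least 1. The stretches that follow carry the matches, all of them in genes of helicase subunits, which edgeR called in no comparison. Of the members that edgeR called, Tyms was searched and Gins2 was not, so matches cannot be set against calls. Capitals mark the motif, and each position is the offset in bases from the transcript start, negative before it.
Mcm3, chr1:20820275-20820304, minus strand, reverse-strand match starting at position 19: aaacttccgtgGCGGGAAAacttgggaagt
Mcm3, chr1:20820263-20820285, minus strand, starting at position 38: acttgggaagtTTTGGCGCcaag
Mcm5, chr8:75109347-75109376, plus strand, position -153 to -142: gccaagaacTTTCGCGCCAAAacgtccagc
Mcm6, chr1:128359795-128359824, minus strand, position -110 to -99: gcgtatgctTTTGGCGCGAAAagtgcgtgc
Mcm6, chr1:128359734-128359763, minus strand, starting at position -47: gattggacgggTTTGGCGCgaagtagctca
Mcm7, chr5:138172030-138172059, minus strand, reverse-strand match starting at position -165: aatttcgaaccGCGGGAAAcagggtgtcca
Mcm7, chr5:138171849-138171878, minus strand, starting at position 16: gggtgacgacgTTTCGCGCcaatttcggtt
In the windows of Mcm5 and Mcm6 a pair of these motifs overlaps on opposite strands to give the same 12 bases, TTTCGCGCCAAA, which reads TTTGGCGCGAAA on the other strand. This 12-base run was searched for after it had been seen, and 4 of all 32851 windows (0.0122%) held it. A match is a run of letters, not a measured binding site, and no factor was measured here.

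Mcm2, the subunit with the highest counts (20849 to 36204 per library, chr6:88883474-88898780), had 422, 398, 364 and 375 CPM in siPD-L1 and 427, 392, 360.3 and 353 CPM in siNeg tumours. It had 418, 409 and 380.0 CPM in D5W and 418, 377 and 450.1 CPM in day 0 tumours. The groups overlapped, and the highest library was day 0 replicate 3. Its means were 389.7 ± 25.9 CPM in siPD-L1, 383 ± 34.0 CPM in siNeg, 402 ± 19.9 CPM in D5W and 415 ± 36.5 CPM in day 0 tumours (SD, n = 4, 4, 3 and 3). The log2 fold changes against day 0 were -0.092 ± 0.085 in siPD-L1, -0.12 ± 0.085 in siNeg and -0.046 ± 0.091 in D5W tumours, all within the spread between replicates (edgeR quasi-likelihood adjusted p = 0.466, 0.371 and 0.748).

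Mcm5 lies between Mcm2 and Mcm3 in the ring. Mcm5 had 182 to 219.6 CPM in siPD-L1, 182 to 204 CPM in siNeg, 203 to 220.0 CPM in D5W and 189.8 to 235 CPM in day 0 tumours, and Mcm3 had 173 to 224 CPM in siPD-L1, 180.3 to 209 CPM in siNeg, 181 to 227 CPM in D5W and 184 to 219.8 CPM in day 0 tumours. All 4 groups overlapped for both genes. Mcm6 had 232 to 254 CPM in siPD-L1, 217 to 258 CPM in siNeg, 209.5 to 254 CPM in D5W and 221 to 270.3 CPM in day 0 tumours, again with all groups overlapping. The largest size of change among these 3 genes was for Mcm5 in siNeg against day 0 tumours, at -0.17 ± 0.089 on the log2 scale (edgeR quasi-likelihood adjusted p = 0.204).

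Mcm7, between Mcm3 and Mcm4 in the ring, had 174, 160.1, 145 and 147 CPM in siPD-L1 and 154, 156, 146 and 137 CPM in siNeg tumours. It had 156, 157 and 143 CPM in D5W and 172, 150.3 and 179.8 CPM in day 0 tumours. The groups overlapped, with siNeg replicate 4 lowest and day 0 replicate 3 highest. Its log2 fold change in siNeg against day 0 tumours was -0.18 ± 0.082, with an unadjusted p of 0.0486 and an edgeR quasi-likelihood adjusted p of 0.150. Under voom it was -0.19 and passed (adjusted p = 0.0240), where voom called 6945 genes in all and edgeR 3158. Exons of Mcm7 share 321 bases with Ap4m1 and 64 with Cops6 on the opposite strand, and 84 with Mir25 and 88 with Mir93 on its own strand. The strand setting of the counting is not given in the sources used here, so reads of such overlaps may be counted for either gene.

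Mcm4, which lies between Mcm6 and Mcm7, followed the other members least (r = 0.52 over the 14 libraries). It had 157, 138, 128 and 124 CPM in siPD-L1 and 143, 124, 118 and 123 CPM in siNeg tumours. It had 140.4, 135 and 132 CPM in D5W and 124, 114 and 135 CPM in day 0 tumours. Its highest library was siPD-L1 replicate 1 and its lowest was day 0 replicate 2, and the groups overlapped. The log2 fold changes against day 0 were 0.14 ± 0.090 in siPD-L1, 0.026 ± 0.090 in siNeg and 0.13 ± 0.096 in D5W tumours (edgeR quasi-likelihood adjusted p = 0.298, 0.875 and 0.355). As a share of the summed CPM of the 6 Mcm genes, Mcm4 took 10.3% ± 0.511 in siPD-L1, 9.93% ± 0.399 in siNeg, 10.2% ± 0.347 in D5W and 9.04% ± 0.197 in day 0 tumours (SD, n = 4, 4, 3 and 3). The highest day 0 share, 9.23%, lay below the lowest day 7 share, 9.47% in a siNeg library. For the other 5 subunits the shares of the day 7 and day 0 libraries overlapped, and Mcm2 took 28.5% to 30.6% in every library. These shares were not tested, and how often shares of other genes separate in this way was not counted.

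Cdc45 (chr16:18780447-18811987), which joins the loaded ring to make it active, had 40.9, 37.6, 34.2 and 35.7 CPM in siPD-L1 and 36.8, 36.0, 35.4 and 35.9 CPM in siNeg tumours. It had 41.3, 40.6 and 38.7 CPM in D5W and 40.3, 34.8 and 41.6 CPM in day 0 tumours. All 4 siNeg libraries lay below all 3 D5W libraries, and both of these groups overlapped the day 0 libraries. The log2 fold change in siNeg against D5W tumours was -0.16 ± 0.074, with an unadjusted p of 0.04999 and an edgeR quasi-likelihood adjusted p of 0.334, and in siPD-L1 against D5W tumours it was -0.12 ± 0.074 (adjusted p = 0.781). Against day 0 the values were -0.070 ± 0.075 in siPD-L1, -0.11 ± 0.074 in siNeg and 0.046 ± 0.080 in D5W tumours, none of which passed the test. Its exons share 209 bases with Ufd1 on the opposite strand.

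Gins2 (chr8:120578633-120589304, minus strand) was the member with the largest difference from day 0. It had 14.6, 17.8, 15.2 and 14.9 CPM in siPD-L1 and 16.4, 16.4, 14.9 and 15.5 CPM in siNeg tumours. It had 17.8, 17.3 and 12.8 CPM in D5W and 20.7, 20.8 and 22.6 CPM in day 0 tumours. Every one of the 11 day 7 libraries was below every day 0 library, the day 7 groups overlapped, and D5W replicate 3 was lowest. The share of all genes that separate in this way was not counted, for Gins2 or for the genes named below. In the single comparisons with day 0, groups did not overlap for 35% of all genes in siPD-L1, 41.7% in siNeg and 43.8% in D5W tumours. Its means were 15.6 ± 1.47 CPM in siPD-L1, 15.8 ± 0.733 CPM in siNeg, 15.9 ± 2.77 CPM in D5W and 21.4 ± 1.04 CPM in day 0 tumours (SD, n = 4, 4, 3 and 3), from 994 to 1778 counts per library. Gins2 fell by 0.45 ± 0.11 on the log2 scale in siPD-L1 (-27.0% against day 0), by 0.44 ± 0.11 in siNeg and by 0.42 ± 0.12 in D5W tumours (edgeR quasi-likelihood adjusted p = 0.00935, 0.0134 and 0.0204). These 3 comparisons share the same 3 day 0 libraries. In bulk tumour RNA, fewer cells of a type and less RNA per cell cannot be told apart.

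The Gins2 call in siPD-L1 against day 0 tumours held under all 24 alternative settings. In siNeg tumours it was lost with library totals only (-0.40, adjusted p = 0.0666) and without day 0 replicate 3 (-0.40, adjusted p = 0.0603). In D5W tumours it was lost with library totals only (-0.34, adjusted p = 0.128), with the fit of those groups alone (-0.43, adjusted p = 0.0617), without day 0 replicate 1 (-0.44, adjusted p = 0.0596), without day 0 replicate 3 (-0.38, adjusted p = 0.0731), without D5W replicate 3 (-0.29, adjusted p = 0.0677) and without both siPD-L1 replicate 1 and D5W replicate 3 (-0.29, adjusted p = 0.0547), all by edgeR. Of the 4097 exon bases of Gins2, 2758 lie opposite exons of Gse1, which is not analysed here, so with the strand setting unknown the Gins2 counts are uncertain.

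Markers of other cells were measured in the same libraries. The summed level of 5 endothelial markers was 47.3 to 65.9 CPM in siPD-L1, 44.9 to 55.8 CPM in siNeg, 45.6 to 67.1 CPM in D5W and 27.8 to 36.1 CPM in day 0 tumours, and 2, 1 and 4 of the 5 were called higher than day 0 in siPD-L1, siNeg and D5W tumours. The 7 fibroblast markers summed to 60.7 to 321 CPM in siPD-L1, 59.2 to 158 CPM in siNeg, 102 to 829.4 CPM in D5W and 111 to 147 CPM in day 0 tumours, with 829.4 CPM in D5W replicate 3, and 1 of them was called lower in siPD-L1 tumours and 0 in the others. In D5W tumours 6 of the 7 had an unadjusted edgeR p under 0.05, with a median log2 fold change of 1.82. The 5 erythroid markers summed to 42.8 to 349.6 CPM in siPD-L1, 9.10 to 90.8 CPM in siNeg, 10.2 to 158 CPM in D5W and 127 to 983 CPM in day 0 tumours, and the 7 macrophage markers to 51.7 to 130.1 CPM, 74.4 to 171 CPM, 109 to 180.3 CPM and 122 to 139.9 CPM in the same order, with 0 erythroid and 0 macrophage markers called in any of these comparisons. All 5 erythroid markers had an unadjusted edgeR p under 0.05 in siNeg against day 0 tumours, with a median log2 fold change of -3.38. In D5W tumours 2 of them did (median -2.60) and in siPD-L1 tumours 0 (median -1.79). T and NK cell markers summed to at most 5.29 CPM in any library, with 0 to 2 of the 8 at 0, and B cell markers to at most 2.66 CPM. Against day 0, 1 of the 6 tested T and NK cell markers was called higher in siNeg tumours. Of the 4 B cell markers, 1 was called lower in siPD-L1 and 1 in D5W tumours. The part of these cells in the Gins2 and Tyms values was not tested.

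Gins2 acts with Gins1, Gins3 and Gins4 as the GINS complex, and all 4 had lower means at day 7 than at day 0. Gins4 had 36.6, 35.8, 33.0 and 35.1 CPM in siPD-L1 and 33.9, 36.0, 34.1 and 32.7 CPM in siNeg tumours. It had 35.4, 36.2 and 34.1 CPM in D5W and 42.0, 38.9 and 38.9 CPM in day 0 tumours. Its day 7 libraries, 32.7 to 36.6 CPM, all lay below its day 0 libraries. Gins4 fell by 0.19 ± 0.061 on the log2 scale in siPD-L1 and by 0.23 ± 0.061 in siNeg tumours (edgeR quasi-likelihood adjusted p = 0.0427 and 0.0205), and had -0.18 ± 0.066 in D5W tumours (adjusted p = 0.0598). Gins3 had 10.2 ± 1.65 CPM in siPD-L1, 8.59 ± 0.956 CPM in siNeg, 9.38 ± 0.653 CPM in D5W and 11.5 ± 0.819 CPM in day 0 tumours (SD, n = 4, 4, 3 and 3) and fell by 0.42 ± 0.13 in siNeg tumours (adjusted p = 0.0308), with -0.17 ± 0.13 in siPD-L1 and -0.30 ± 0.13 in D5W tumours that did not pass. Gins1 had 15.1 ± 0.957 CPM in siPD-L1, 14.7 ± 0.893 CPM in siNeg, 15.3 ± 1.36 CPM in D5W and 16.6 ± 1.12 CPM in day 0 tumours (SD, n = 4, 4, 3 and 3) and passed in none of the 3 comparisons. Gins4 in siPD-L1 tumours and Gins1 were named after their values were seen. Gins4 did not pass in siPD-L1 tumours without any of 9 libraries, all but siPD-L1 replicates 1 and 2, siNeg replicates 1 and 2 and D5W replicate 3 (log2 -0.21 to -0.15, adjusted p = 0.0509 to 0.200), and in siNeg tumours without siNeg replicates 3 or 4 or day 0 replicate 1 (log2 -0.22 to -0.19, adjusted p = 0.050015 to 0.122). Gins3 was no longer called in siNeg tumours without siNeg replicates 1, 2 or 4 or day 0 replicates 1, 2 or 3 (log2 -0.48 to -0.35, adjusted p = 0.0517 to 0.114). With the trend of GC content and transcript length removed, Gins4 was at -0.041 in siPD-L1 and -0.11 in siNeg tumours (adjusted p = 0.660 and 0.206).

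Tyms (chr5:30058202-30073617, minus strand), the thymidylate synthase gene, had 47.5, 55.3, 47.9 and 45.5 CPM in siPD-L1 and 47.4, 47.4, 42.3 and 43.0 CPM in siNeg tumours. It had 54.0, 50.8 and 48.7 CPM in D5W and 57.0, 53.3 and 59.8 CPM in day 0 tumours. All 4 siNeg libraries were below all 3 D5W and all 3 day 0 libraries, while the siPD-L1 libraries overlapped each of the other groups. Its means were 49.0 ± 4.32 CPM in siPD-L1, 45.0 ± 2.75 CPM in siNeg, 51.2 ± 2.65 CPM in D5W and 56.7 ± 3.23 CPM in day 0 tumours (SD, n = 4, 4, 3 and 3). Tyms fell by 0.33 ± 0.077 on the log2 scale in siNeg against day 0 tumours (edgeR quasi-likelihood adjusted p = 0.00888). Against day 0 it was -0.21 ± 0.077 in siPD-L1 and -0.15 ± 0.082 in D5W tumours (adjusted p = 0.0636 and 0.206), and in siNeg against D5W tumours it was -0.18 ± 0.077 (unadjusted p = 0.0301, adjusted p = 0.287). The difference between the siRNA groups themselves was 0.12 ± 0.071 (adjusted p = 0.641), so a call in siNeg tumours beside none in siPD-L1 tumours was not a difference that passed its own test. A pseudogene, Tyms-ps, had 0 to 2 counts per library.

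The siNeg call for Tyms was lost with library totals only (-0.30, adjusted p = 0.0953). In siPD-L1 against day 0 tumours Tyms passed under 5 of the 24 settings: DESeq2 (adjusted p = 0.0437), voom (0.0141), the removal of GC content and length trends (0.0316), leaving out D5W replicate 3 (0.0455) and leaving out siPD-L1 replicate 2 (0.0141).

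Tk1 and Dtymk, the kinases that salvage thymidine and phosphorylate the product of Tyms, had larger log2 fold changes than Tyms against day 0. Tk1 had 60.7, 66.3, 69.5 and 67.5 CPM in siPD-L1 and 67.7, 69.0, 67.1 and 61.7 CPM in siNeg tumours. It had 76.1, 75.1 and 50.2 CPM in D5W and 101, 85.1 and 103 CPM in day 0 tumours. All 11 day 7 libraries were below the 3 day 0 libraries. Tk1 fell by 0.54 ± 0.12 in siPD-L1, 0.54 ± 0.12 in siNeg and 0.52 ± 0.13 in D5W tumours on the log2 scale (edgeR quasi-likelihood adjusted p = 0.00555, 0.00694 and 0.0118). Dtymk had 43.5 ± 6.96 CPM in siPD-L1, 43.8 ± 2.91 CPM in siNeg, 41.3 ± 8.66 CPM in D5W and 57.6 ± 1.91 CPM in day 0 tumours (SD, n = 4, 4, 3 and 3) and also fell in all 3, by 0.41 ± 0.13, 0.40 ± 0.13 and 0.48 ± 0.14 (adjusted p = 0.0396, 0.0495 and 0.0279), calls that held under 12, 10 and 16 of the 24 settings. Tk1 did not pass in D5W tumours under 3 of the 24 settings, with adjusted p-values of up to 0.0614. Among these was the fit without day 0 replicate 1 (log2 -0.49, adjusted p = 0.0566). Dtymk was no longer called in siPD-L1 tumours without any of 8 libraries, all but siPD-L1 replicate 2, siNeg replicates 2 and 4 and D5W replicates 1, 2 and 3 (log2 -0.43 to -0.33, adjusted p = 0.0510 to 0.137), and in siNeg tumours without any of 10 libraries, all but siPD-L1 replicates 1 and 2 and D5W replicates 1 and 3 (log2 -0.44 to -0.35, adjusted p = 0.0534 to 0.166), and in D5W tumours without D5W replicate 3 or day 0 replicates 1, 2 or 3 (log2 -0.50 to -0.32, adjusted p = 0.0623 to 0.0979).

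**Figure D2:**
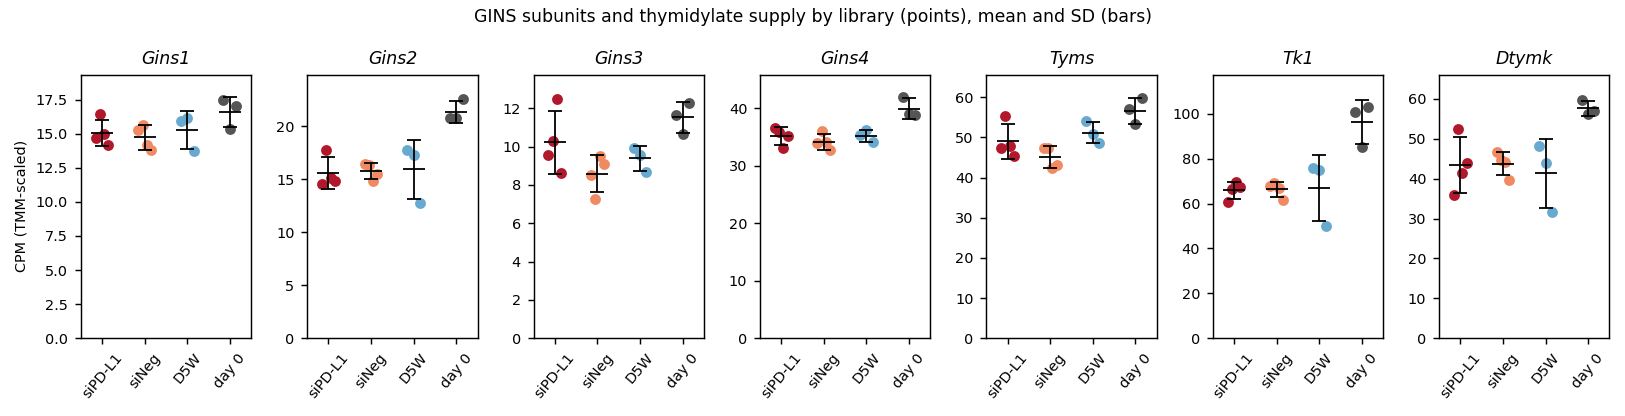
TMM-scaled CPM of the GINS subunit genes and of Tyms, Tk1 and Dtymk in each library (points) of the siPD-L1, siNeg, D5W and day 0 groups, with the group mean and SD (bars) and axes from 0. For Gins2, Gins4, Tk1 and Dtymk every day 7 library is below every day 0 library, while for Gins1, Gins3 and Tyms some overlap. The share of all genes that separate in this way was not counted.

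Ccne1 (chr7:38097984-38107534, minus strand), the cyclin E1 gene, had 34.7, 37.0, 32.3 and 31.6 CPM in siPD-L1 and 33.4, 30.3, 30.2 and 32.0 CPM in siNeg tumours. It had 33.9, 32.8 and 26.5 CPM in D5W and 35.9, 31.3 and 38.3 CPM in day 0 tumours. The groups overlapped, and D5W replicate 3 was lowest. Its means were 33.9 ± 2.44 CPM in siPD-L1, 31.5 ± 1.52 CPM in siNeg, 31.0 ± 4.00 CPM in D5W and 35.2 ± 3.54 CPM in day 0 tumours (SD, n = 4, 4, 3 and 3), and no comparison passed by edgeR, with a smallest quasi-likelihood adjusted p of 0.205 in D5W against day 0 tumours (-0.18 ± 0.10 on the log2 scale). Under voom Ccne1 was -0.17 in siNeg against day 0 tumours and passed (adjusted p = 0.0462), among 6945 genes that voom called there. Ccne2, which encodes the paralogous cyclin E2, had 18.0004 ± 2.45 CPM in siPD-L1, 14.5 ± 1.58 CPM in siNeg, 16.5 ± 1.72 CPM in D5W and 19.0 ± 0.837 CPM in day 0 tumours (SD, n = 4, 4, 3 and 3) and fell by 0.39 ± 0.12 in siNeg against day 0 tumours (adjusted p = 0.0309). Ccne2 was named after its values were seen. Ccne2 did not pass in siNeg tumours without siNeg replicates 2 or 3 or day 0 replicates 1, 2 or 3 (log2 -0.43 to -0.34, adjusted p = 0.0586 to 0.109). Its exons share 609 bases with Ints8 on the opposite strand.

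Counted over the members, 1 of 10 was called lower and 0 higher in siPD-L1 against day 0 tumours, where 21.9% of the 17141 tested genes were called, 11.5% higher and 10.4% lower. In siNeg against day 0 tumours 2 of 10 were called lower and 0 higher, where 18.4% of genes were called, 10.5% higher and 7.91% lower. In D5W against day 0 tumours 1 of 10 was called lower and 0 higher, where 21.5% of genes were called, 11.8% higher and 9.69% lower. The members' shares of calls were thus near those of all genes. With library totals only, the calls over all genes were 1982 higher and 379 lower in D5W tumours, in place of 2030 and 1661, and 1262 higher and 512 lower in siNeg tumours, in place of 1802 and 1356. Groups did not overlap for 1, 2 and 1 members in siPD-L1, siNeg and D5W tumours against day 0, and for 35%, 41.7% and 43.8% of all genes. The members' median log2 fold change was -0.080 in siPD-L1, -0.14 in siNeg and -0.074 in D5W tumours, beside medians over all genes of 0.014, 0.0065 and 0.0025. With single libraries left out the member medians ran from -0.15 to -0.019 in siPD-L1, -0.21 to -0.079 in siNeg and -0.15 to -0.018 in D5W tumours, in each case lowest without day 0 replicate 2 and nearest 0 without day 0 replicate 3. With library totals only, the median in D5W tumours was 0.0089.

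**Figure D3:**
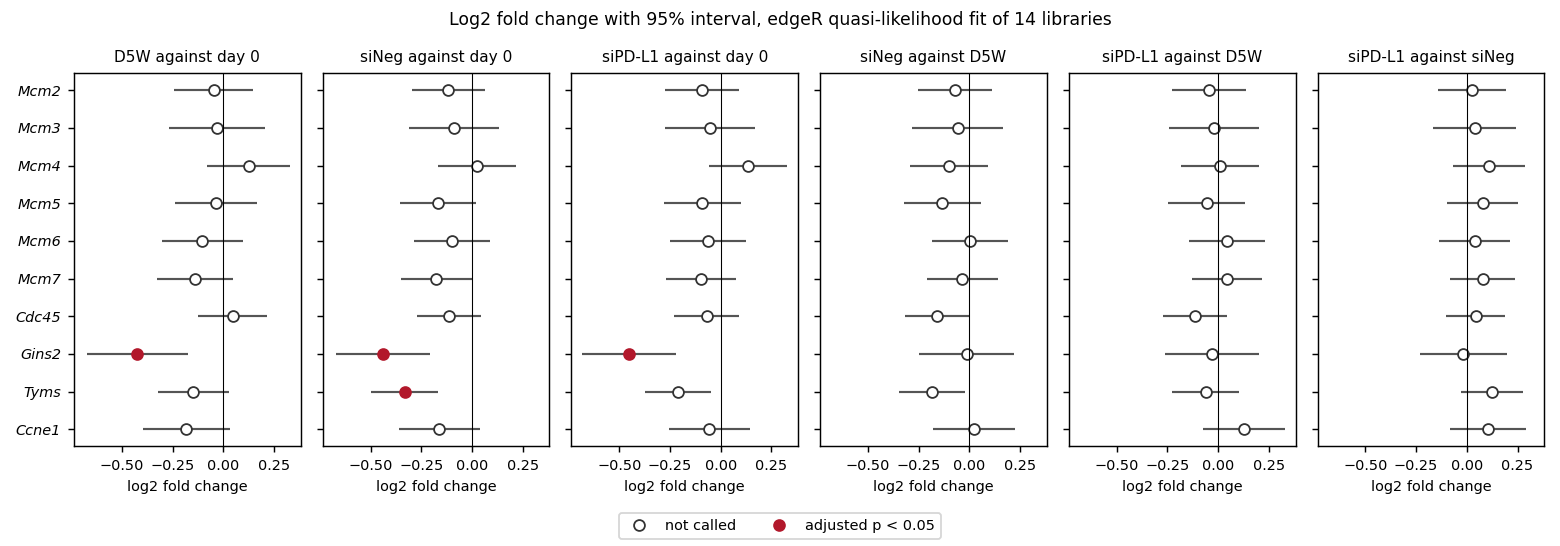
Log2 fold change (point) and its unadjusted 95% interval (line) of each gene in the 6 comparisons, from the edgeR fit of all 14 libraries, with filled points for adjusted p under 0.05. Filled points are at Gins2 in the 3 comparisons with day 0 (-0.42, -0.44 and -0.45) and at Tyms in siNeg against day 0 (-0.33).

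Comparisons among the day 7 groups called none of the members. In siNeg against D5W tumours 0 of 10 passed by edgeR, by DESeq2 or by voom, 2 had an unadjusted p under 0.05 (Cdc45 and Tyms), and the same 2 did not overlap between the groups, where edgeR called 0.105% of genes (18), DESeq2 459 genes and voom 306, and 14.3% did not overlap. With single libraries left out, edgeR called 0 to 123 genes, fewest without siNeg replicate 2 or day 0 replicate 1 and most without D5W replicate 2. In siPD-L1 against D5W tumours 0 of 10 passed by any of these tools, 0 had an unadjusted p under 0.05 and 0 were without overlap, where edgeR called 0.0292% of genes (5), DESeq2 183 genes and voom 13, and 5.74% did not overlap. With single libraries left out, edgeR called 0 to 10 genes, fewest without siPD-L1 replicates 1 or 2 or day 0 replicate 1 and most without D5W replicate 3. In siPD-L1 against siNeg tumours the counts were likewise 0, where 0% of genes were called by edgeR, 58 genes by DESeq2 and 5 by voom, and 5.74% did not overlap. Member medians were -0.064, -0.026 and 0.060 in these 3 comparisons, beside all-gene medians of 0.016, 0.0066 and -0.0094. With single libraries left out they ran from -0.13 to -0.026, from -0.082 to 0.046 and from 0.034 to 0.11. The median in siPD-L1 against D5W tumours was above 0 without D5W replicate 1 (0.046), siPD-L1 replicate 3 or siPD-L1 replicate 4.

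The unadjusted 95% intervals give the size of difference that the data leave room for. In siPD-L1 against siNeg tumours they ran from -0.23 (Gins2) to 0.29 (Ccne1) on the log2 scale, or from -14.9% to 22.4%. In siPD-L1 against D5W tumours they ran from -0.27 (Cdc45) to 0.33 (Ccne1), and in siNeg against D5W tumours from -0.35 (Tyms) to 0.22 (Ccne1). Among the members not called against day 0, the bounds were -0.37 (Tyms) and 0.33 (Mcm4) in siPD-L1, -0.36 (Ccne1) and 0.22 (Mcm4) in siNeg, and -0.40 (Ccne1) and 0.33 (Mcm4) in D5W tumours.

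Over the 14 libraries the members tended to move together. Day 0 replicate 3 was the highest of the 14 libraries for 8 of the 10 genes. The lowest values lay in D5W replicate 3 and siNeg replicate 4 for 3 genes each, in siPD-L1 replicate 3 for 2, and in siNeg replicate 3 and day 0 replicate 2 for 1 each. As a description over the 14 libraries, which share group differences and depth, Pearson's r of a gene with the mean of the other 9 was 0.93 for Mcm5, 0.92 for Mcm2, 0.90 for Mcm3, 0.89 for Mcm7 and 0.87 for Mcm6. It was 0.78 for Ccne1, 0.76 for Cdc45 and Tyms, 0.57 for Gins2 and 0.52 for Mcm4.

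Outside the members, the genes whose log2 CPM was most like the members' mean were Uhrf1 (r = 0.94 over 14 libraries), a reader of hemimethylated DNA at the fork, Eftud2 (0.91), a spliceosome GTPase, Fen1 (0.91), the flap endonuclease of lagging-strand synthesis, Zdhhc3 (0.89), a palmitoyltransferase, and Plk1 (0.88), a mitotic kinase.

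**Figure D4:**
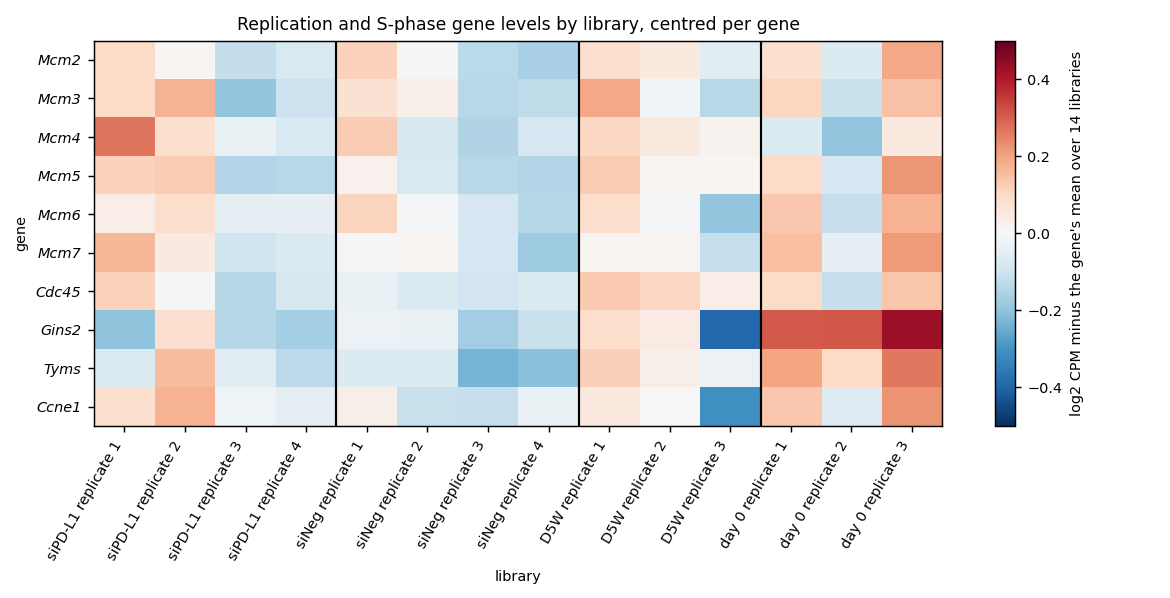
Log2 CPM of each gene in each library minus the gene's mean over 14 libraries (colour, red above and blue below), with black lines between the siPD-L1, siNeg, D5W and day 0 groups. The day 0 replicate 3 column is red for all genes, 8 of them at their highest, and in the Gins2 and Tyms rows all 3 day 0 libraries are red.

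Other genes of origin licensing and firing were called in both directions, as were genes over the whole table. Of 22 tested, 3 were called higher and 2 lower in siPD-L1, 2 higher and 4 lower in siNeg, and 4 higher and 1 lower in D5W tumours against day 0. Of all tested genes, 21.9%, 18.4% and 21.5% were called in the same order. Orc5, a subunit of the origin recognition complex, had 21.4 ± 2.62 CPM in siPD-L1, 21.4 ± 0.885 CPM in siNeg, 20.027 ± 2.03 CPM in D5W and 27.5 ± 1.05 CPM in day 0 tumours (SD, n = 4, 4, 3 and 3) and fell in all 3 (log2 -0.36 ± 0.095, -0.36 ± 0.095 and -0.46 ± 0.10, edgeR quasi-likelihood adjusted p = 0.0158, 0.0185 and 0.00776). Ticrr, which helps Cdc45 to bind origins, averaged 36.3 ± 1.80 CPM in siPD-L1 tumours, against 28.6 ± 3.92 CPM in day 0 tumours, and rose by 0.34 ± 0.088 (adjusted p = 0.0133). It also rose in siNeg (0.28 ± 0.088, adjusted p = 0.0365) and D5W tumours (0.29 ± 0.093, adjusted p = 0.0394), the siNeg value being named after it was seen. Cdc7, the kinase that phosphorylates the Mcm ring, rose in siPD-L1 tumours (0.33 ± 0.091, adjusted p = 0.0187), as did Topbp1 (0.24 ± 0.073, adjusted p = 0.0289). Gmnn, the inhibitor of licensing, fell in siNeg tumours (-0.24 ± 0.072, adjusted p = 0.0307), and Orc1 and Mtbp rose in D5W tumours (0.48 ± 0.16 and 0.30 ± 0.080, adjusted p = 0.0385 and 0.0183). The count of 5 in siPD-L1 tumours was 0 without day 0 replicate 1, 1 without day 0 replicate 2, 3 without day 0 replicate 3 and 8 without D5W replicate 3. The count of 6 in siNeg tumours was 0 without siNeg replicate 4 or day 0 replicate 1, 2 without siNeg replicate 3 or day 0 replicates 2 or 3 and 3 without siNeg replicates 1 or 2. The count of 5 in D5W tumours was 1 without day 0 replicates 1 or 2, 2 without siNeg replicate 1 or D5W replicate 3, 3 without siNeg replicate 3 or D5W replicate 1 and 9 without siPD-L1 replicate 3. Leaving out each library in turn kept the calls of Orc5 in D5W tumours. Each of the other calls named here was lost without 1 or more of siPD-L1 replicates 1 and 3, siNeg replicates 1, 2, 3 and 4, D5W replicates 1, 2 and 3 and day 0 replicates 1, 2 and 3, with adjusted p-values of up to 0.185. With library totals only, Orc5 was at -0.37 in D5W tumours and did not pass (adjusted p = 0.0979). Exons of Orc1 share 376 bases with Gm12743 and those of Mtbp 330 with Mrpl13 on the opposite strand.

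At the replication fork, 0 of 27 tested genes were called higher and 1 lower in siPD-L1, 0 higher and 3 lower in siNeg, and 1 higher and 1 lower in D5W tumours against day 0. The shares called over all genes were 21.9%, 18.4% and 21.5%. Rpa3, the smallest subunit of the protein that coats single-stranded DNA, had 27.5, 26.1, 26.6 and 26.8 CPM in siPD-L1 and 28.0, 27.2, 26.9 and 26.5 CPM in siNeg tumours. It had 27.4, 29.6 and 22.7 CPM in D5W and 36.3, 41.2 and 37.5 CPM in day 0 tumours. All its day 7 libraries lay below its day 0 libraries, and it fell by 0.52 ± 0.081 in siPD-L1, 0.50 ± 0.081 in siNeg and 0.53 ± 0.087 in D5W tumours (edgeR quasi-likelihood adjusted p = 0.000788, 0.00117 and 0.00137), calls that held under all 24 settings. Tipin, of the fork protection complex, and Rpa2 fell in siNeg tumours (-0.32 ± 0.066 and -0.28 ± 0.089, adjusted p = 0.00517 and 0.0446). Pola1, the catalytic subunit of the priming polymerase, rose in D5W tumours (0.44 ± 0.13, adjusted p = 0.0282). Pcna, the sliding clamp, had 257 ± 7.57 CPM in siPD-L1, 259 ± 9.11 CPM in siNeg, 265 ± 18.4 CPM in D5W and 279.5 ± 14.044 CPM in day 0 tumours (SD, n = 4, 4, 3 and 3) and did not pass. The count of 1 in siPD-L1 tumours was 3 without siPD-L1 replicate 2 or day 0 replicate 3 and 4 without D5W replicate 3. The count of 3 in siNeg tumours was 5 without day 0 replicate 2 and 6 without siPD-L1 replicate 3 or D5W replicate 3. The count of 2 in D5W tumours was 1 without day 0 replicates 1 or 2. Leaving out each library in turn kept the calls of Rpa3 in siPD-L1, siNeg and D5W tumours and Tipin in siNeg tumours. Each of the other calls named here was lost without 1 or more of siPD-L1 replicate 4, siNeg replicates 2, 3 and 4, D5W replicates 2 and 3 and day 0 replicates 1, 2 and 3, with adjusted p-values of up to 0.193. With library totals only, Tipin was at -0.28 in siNeg tumours and did not pass (adjusted p = 0.0784).

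Of 14 tested genes of nucleotide supply, 0 were called higher and 3 lower in siPD-L1, 2 lower in siNeg and 2 lower in D5W tumours against day 0. They were Tk1 and Dtymk each time and, in siPD-L1 tumours, Shmt2, a mitochondrial enzyme of one-carbon supply (-0.42 ± 0.084, edgeR quasi-likelihood adjusted p = 0.00379). Over all genes, 21.9%, 18.4% and 21.5% were called in siPD-L1, siNeg and D5W tumours. Rrm2, the regulated subunit of ribonucleotide reductase, had 298 ± 30.8 CPM in siPD-L1, 291 ± 15.6 CPM in siNeg, 299.99 ± 50.6 CPM in D5W and 326 ± 28.7 CPM in day 0 tumours (SD, n = 4, 4, 3 and 3) and did not pass. The count of 2 in siNeg tumours was 1 without siPD-L1 replicates 3 or 4, siNeg replicates 2, 3 or 4, D5W replicate 2 or day 0 replicates 1, 2 or 3 and 4 without D5W replicate 3. The count of 2 in D5W tumours was 0 without day 0 replicate 1 and 1 without D5W replicate 3 or day 0 replicates 2 or 3.

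Among regulators of the step from G1 to S, 2 of 28 tested genes were called higher and 1 lower in siPD-L1, 3 higher and 3 lower in siNeg, and 3 higher and 2 lower in D5W tumours against day 0. The shares called over all genes were 21.9%, 18.4% and 21.5%. Cdk2, the kinase that cyclin E1 activates, averaged 508 ± 14.7 CPM in siPD-L1 tumours, against 381 ± 15.4 CPM in day 0 tumours, and rose by 0.41 ± 0.089 in siPD-L1, 0.46 ± 0.089 in siNeg and 0.28 ± 0.095 in D5W tumours (edgeR quasi-likelihood adjusted p = 0.00543, 0.00355 and 0.0475). Ccnd1, the cyclin D1 gene, averaged 171 ± 4.94 CPM in siPD-L1 tumours, against 229 ± 3.55 CPM in day 0 tumours, and fell in all 3 (-0.42 ± 0.075, -0.45 ± 0.075 and -0.26 ± 0.080, adjusted p = 0.00181, 0.00131 and 0.0330). Rb1, which holds E2F factors in check, rose in siPD-L1 and siNeg tumours (0.30 ± 0.073 and 0.32 ± 0.074, adjusted p = 0.0115 and 0.00837). E2f5 rose in siNeg tumours (0.59 ± 0.13, adjusted p = 0.00854). Cdk6 and Fbxw7 rose and Cdk4 fell in D5W tumours (0.56 ± 0.092, 0.42 ± 0.12 and -0.33 ± 0.11, adjusted p = 0.00136, 0.0246 and 0.0462). The count of 3 in siPD-L1 tumours was 5 without siPD-L1 replicate 2 and 7 without D5W replicate 3. The count of 5 in D5W tumours was 1 without day 0 replicates 1 or 3, 2 without day 0 replicate 2 and 3 without siPD-L1 replicates 2 or 4, siNeg replicates 1, 2, 3 or 4 or D5W replicate 2. Leaving out each library in turn kept the calls of Cdk2 in siPD-L1 and siNeg tumours, Ccnd1 in siPD-L1 and siNeg tumours, Rb1 in siNeg tumours, E2f5 in siNeg tumours and Cdk6 in D5W tumours. Each of the other calls named here was lost without 1 or more of siPD-L1 replicates 1, 2 and 4, siNeg replicates 1, 2, 3 and 4, D5W replicates 1, 2 and 3 and day 0 replicates 1, 2 and 3, with adjusted p-values of up to 0.205. Rb1 in siNeg tumours did not pass with no low-count filter (0.30, adjusted p = 0.0605) or with the trend of GC content and length removed (0.17, adjusted p = 0.162). Opposite-strand exons share 1100 of the 4709 exon bases of Ccnd1 (LTO1), 641 of Cdk4 (Tspan31), 488 and 408 of Rb1 (Rcbtb2 and Lpar6), 368 of Cdk6 (Gm17590) and 34 of Cdk2, whose neighbour there is Pmel, a melanocyte gene.

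Mitotic genes, which mark the phase in which paclitaxel acts, were also called in both directions. Of 22 tested, 3 were called higher and 1 lower in siPD-L1, 1 higher and 4 lower in siNeg, and 3 higher and 1 lower in D5W tumours against day 0. Of all tested genes, 21.9%, 18.4% and 21.5% were called in the same order. Mki67, the gene of the Ki-67 antigen, had 784, 535, 682 and 627 CPM in siPD-L1 and 556, 537, 538 and 540.2 CPM in siNeg tumours. It had 622, 615 and 727 CPM in D5W and 436, 372 and 504 CPM in day 0 tumours. All its day 7 libraries lay above its day 0 libraries, and it rose by 0.59 ± 0.12 in siPD-L1 and 0.58 ± 0.13 in D5W tumours (edgeR quasi-likelihood adjusted p = 0.00435 and 0.00720), with 0.31 ± 0.12 in siNeg tumours (adjusted p = 0.0857). Cenpf, a kinetochore protein, rose in all 3 (0.74 ± 0.13, 0.43 ± 0.13 and 0.71 ± 0.14, adjusted p = 0.00215, 0.0382 and 0.00450), and Cenpe, a kinetochore motor, in siPD-L1 and D5W tumours (0.45 ± 0.11 and 0.47 ± 0.12, adjusted p = 0.0127 and 0.0141). Birc5 fell in siPD-L1 and D5W tumours (-0.31 ± 0.096 and -0.34 ± 0.10, adjusted p = 0.0342 and 0.0293), and Plk1, Aurka and Mad2l1 fell in siNeg tumours (-0.39 ± 0.11, -0.31 ± 0.091 and -0.24 ± 0.071, adjusted p = 0.0205, 0.0295 and 0.0304). The count of 4 in siPD-L1 tumours was 2 without day 0 replicate 1 and 9 without D5W replicate 3. The count of 5 in siNeg tumours was 0 without siNeg replicates 3 or 4 or day 0 replicate 1, 2 without siNeg replicate 1 or day 0 replicate 3 and 10 without D5W replicate 3. The count of 4 in D5W tumours was 2 without D5W replicate 3 or day 0 replicate 1. Leaving out each library in turn kept the calls of Mki67 in siPD-L1 and D5W tumours and Cenpf in siPD-L1 and D5W tumours. Each of the other calls named here was lost without 1 or more of siPD-L1 replicates 1, 3 and 4, siNeg replicates 1, 2, 3 and 4, D5W replicate 3 and day 0 replicates 1, 2 and 3, with adjusted p-values of up to 0.171.

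Genes of these 5 lists called higher had longer transcripts than those called lower. The median longest transcript of genes called higher was 6211.5 bases in siPD-L1, 4769 in siNeg and 5346 in D5W tumours, and that of genes called lower was 2389.5, 2344.5 and 2490 bases. With the trend of GC content and length removed, Mki67 had 0.29 in siPD-L1 and 0.24 in D5W tumours (adjusted p = 0.0536 and 0.116), Cdk6 had 0.17 in D5W tumours (adjusted p = 0.219), and Shmt2 had -0.23 in siPD-L1 tumours (adjusted p = 0.147). Cenpf had 0.15 in siNeg and 0.31 in D5W tumours (adjusted p = 0.342 and 0.0665), and 0.38 in siPD-L1 tumours, which passed (adjusted p = 0.0226). In siPD-L1 tumours the calls of Ticrr, Cdc7, Topbp1, Dtymk, Rb1 and Cenpe (0.20, 0.21, 0.075, -0.30, 0.089 and 0.15, adjusted p = 0.133, 0.0654, 0.465, 0.0880, 0.488 and 0.194) also ended. In siNeg tumours the calls of Gmnn, Ticrr, Rpa2, Dtymk, Plk1 and Aurka (-0.12, 0.15, -0.18, -0.28, -0.26 and -0.22, adjusted p = 0.268, 0.276, 0.117, 0.111, 0.0821 and 0.0857) also ended. In D5W tumours the calls of Orc1, Ticrr, Pola1, Dtymk, Fbxw7, Cdk4, Cdk2 and Cenpe (0.42, 0.12, 0.20, -0.34, 0.27, -0.21, 0.24 and 0.15, adjusted p = 0.0751, 0.430, 0.156, 0.0765, 0.0719, 0.162, 0.109 and 0.232) also ended. The Gins2 values were -0.40, -0.42 and -0.39 in siPD-L1, siNeg and D5W tumours and passed the test in all 3 (adjusted p = 0.0156, 0.0130 and 0.0270).

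Among the day 7 groups none of the 5 lists had a call by edgeR with the filter and scaling used here. In siPD-L1 against siNeg tumours 3, 2, 2, 4 and 4 genes of the licensing, fork, nucleotide, G1 to S and mitotic lists had an unadjusted p under 0.05, and DESeq2 and voom also called 0. In siPD-L1 against D5W tumours these counts were 2, 0, 1, 3 and 0, and DESeq2 called 1 nucleotide and 1 G1 to S gene. There edgeR also called 1 nucleotide gene with library totals only and 1 G1 to S gene with no low-count filter. In siNeg against D5W tumours they were 3, 5, 2, 4 and 3, and DESeq2, voom and edgeR with no low-count filter each called 1 G1 to S gene. Of the 22 mitotic genes, 21 had a log2 fold change above 0 in siPD-L1 against siNeg tumours (median 0.14), and 19 had one below 0 in siNeg against D5W tumours (median -0.11). Of the members, 9 of 10 were above 0 in the first and 8 of 10 below 0 in the second, and these comparisons share the siNeg libraries. Over all tested genes, 52.3% were below 0 in the first and 47.0% in the second. These counts of signs were not tested, and genes that move together between libraries do not count as replicates.

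**Figure D5:**
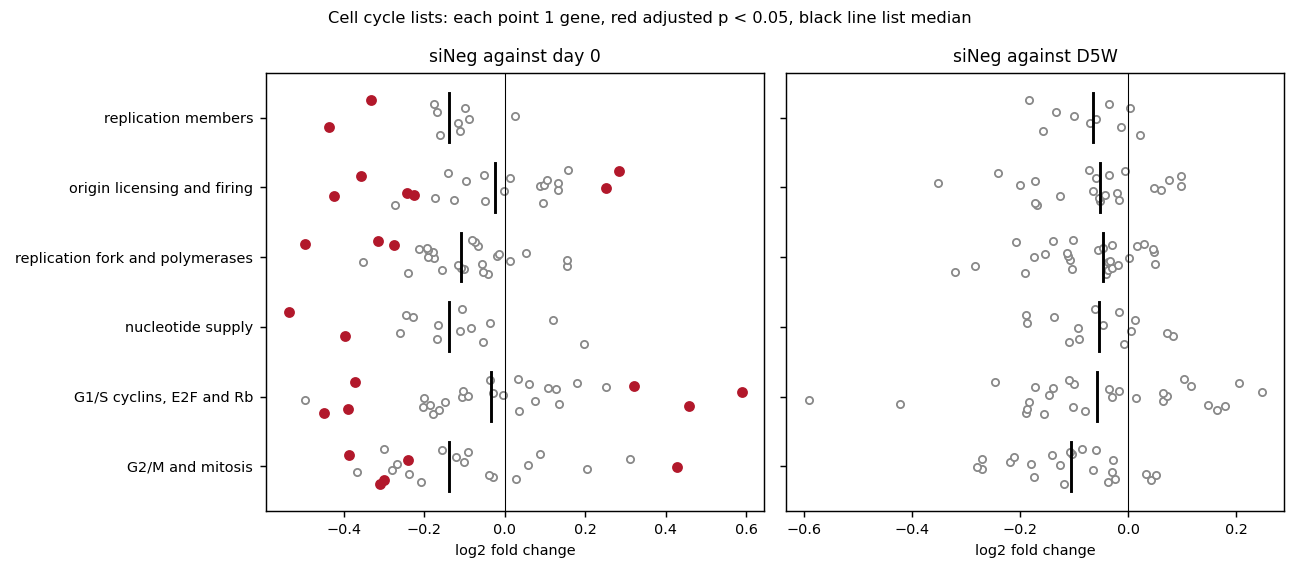
Log2 fold change of each gene (points, red for adjusted p under 0.05) of the 10 replication members and the 5 other cell cycle lists in siNeg against day 0 and siNeg against D5W tumours, with the list median as a black line. Against day 0 the licensing, G1 to S and mitotic lists hold calls on both sides of 0 and the members, fork and nucleotide lists only below 0, and against D5W no list holds a call and the mitotic median is -0.11.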

How the data were processed

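RNA from mouse tumours was measured in 14 libraries of 4 groups. Per the labels' protocols, RNA came from a Qiagen RNeasy kit and was made into TruSeq stranded libraries. The deposited values are the authors' raw counts, whole numbers for each Ensembl gene that were not normalized. The submitters' processing notes name FastQC 0.11.3, STAR, featureCounts, edgeR and GRCm38. The strand setting, the annotation release and other versions are not given in the sources used. The protocol also names 2E' alone and 2E'/PTX, not analysed here.

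GENCODE M21 matched 37386 of 37409 gene IDs, and 3935 genes had no count in any library. Tests used R 4.3.3 and edgeR 4.0.16 with TMM scaling and filterByExpr by group (17141 genes). A robust quasi-likelihood model with 1 coefficient for each group was fitted to the 14 libraries together, and p-values were adjusted by Benjamini-Hochberg over all tested genes at 0.05. The biological coefficient of variation was 16.6%. CPM are TMM-scaled, and log2 CPM used a prior count of 2. The fit was tested on simulated data. Figures used Python 3.11.15 and matplotlib 3.10.9.

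The 10 members, the gene lists and the settings were chosen with earlier results of these data known. Named genes are the members and, per list and comparison, up to 4 called genes with the smallest p. Gins1, Gins3, Gins4, Ccne2, Pcna, Rrm2, Mki67, Cdk2 and Ticrr were also given in comparisons where that rule does not name them. Alternatives were DESeq2 size factors, library totals, other filters, DESeq2 1.42.0, limma 3.58.1 voom, a fit of the compared groups, a replicate block, removal of GC content and length trends, and leaving out each library. An alternative added after seeing the data left out siPD-L1 replicate 1 and D5W replicate 3 at once. Cdt1 and Gse1 are not analysed here.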

Additional observations from a re-analysis of the deposited data

How the results depend on the processing

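Of 1440 member values recomputed over 24 settings, 1352 kept direction and side of the threshold, 9 lost and 7 gained a call, and 72 changed sign, 0 of them called in either setting (log2 -0.088 to 0.077). Against day 0, the members called in D5W tumours (1) were 0 with library totals only, with a fit of those groups alone and without both siPD-L1 replicate 1 and D5W replicate 3, and 0 to 1 when single libraries were left out (0 without D5W replicate 3 or day 0 replicates 1 or 3). In siNeg tumours (2) they were 0 with library totals only, 4 with voom and 1 to 2 with single libraries left out (1 without day 0 replicate 3). In siPD-L1 tumours (1) they were 2 with DESeq2, voom and GC content and length trends removed, and 1 to 2 with single libraries left out (2 without D5W replicate 3 or siPD-L1 replicate 2). Among the day 7 groups 0 members were called under any setting. The 4 members called in siNeg tumours with voom were Gins2, Tyms, Mcm7 and Ccne1, where voom called 6945 genes in all and edgeR 3158. Over the 24 settings the member medians against day 0 ran from -0.15 to -0.019 in siPD-L1, -0.21 to -0.079 in siNeg and -0.15 to 0.0089 in D5W tumours, and from -0.13 to -0.026 in siNeg against D5W, -0.11 to 0.046 in siPD-L1 against D5W and 0.022 to 0.11 in siPD-L1 against siNeg tumours.

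The replicate numbers share no stated source, so the main fit did not pair the samples. Correlations of same-numbered libraries, after group means were taken off, ran from -0.32 to 0.25. In groups this small they cannot settle whether samples are paired. With a replicate block the members called were again 1, 2 and 1 in D5W, siNeg and siPD-L1 tumours against day 0, and Gins2 was at -0.43, -0.43 and -0.45 (edgeR adjusted p = 0.0217, 0.0260 and 0.0167).

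Values that changed sign were, without siPD-L1 replicate 1 and D5W replicate 3, Mcm3 in D5W against day 0 (0.043), Mcm6 and Ccne1 in siNeg against D5W (-0.070 and -0.081), Mcm4, Mcm6 and Mcm7 in siPD-L1 against D5W (-0.086, -0.040 and -0.052) and Mcm2, Cdc45 and Gins2 in siPD-L1 against siNeg (-0.017, -0.0078 and 0.014). With library totals only they were Mcm2, Mcm3, Mcm5 and Pcna in D5W against day 0 (0.038, 0.052, 0.049 and 0.0070), Mcm6 and Ccne1 in siNeg against D5W (-0.049 and -0.031), Mcm4, Mcm6 and Mcm7 in siPD-L1 against D5W (-0.088, -0.045 and -0.050) and Mcm2 in siPD-L1 against siNeg (-0.013). With voom they were Mcm6 and Ccne1 in siNeg against D5W (-0.043 and -0.057) and Mcm4, Mcm6 and Mcm7 in siPD-L1 against D5W (-0.036, -0.025 and -0.0073). With GC content and length trends removed they were Mcm3 in D5W against day 0 (0.0076), Mcm4 in siNeg against day 0 (-0.027), Mcm3 and Ccne1 in siPD-L1 against day 0 (0.0010 and 0.077) and Gins2 in siPD-L1 against siNeg (0.012). With no low-count filter they were Mcm6 in siNeg against D5W (-0.0089) and Mcm4 in siPD-L1 against D5W (-0.0089), with CPM above 1 Mcm6 in siNeg against D5W (-0.0030), in the fit of those groups Mcm6 in siNeg against D5W (-0.0038), and with the replicate block Gins2 in siNeg against D5W (0.0076) and Mcm3 in siPD-L1 against D5W (0.012).

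With single libraries left out, log2 values that crossed 0 ran in D5W against day 0 from -0.11 to 0.014 for Mcm2, -0.13 to 0.043 for Mcm3, -0.11 to 0.038 for Mcm5 and -0.031 to 0.095 for Cdc45. In siNeg against day 0 they ran from -0.046 to 0.087 for Mcm4, and in siPD-L1 against day 0 from -0.13 to 0.010 for Mcm3, -0.13 to 0.0084 for Ccne1 and -0.14 to 0.014 for Ccne2. In siNeg against D5W they ran from -0.13 to 0.038 for Mcm3, -0.071 to 0.069 for Mcm6, -0.077 to 0.0016 for Mcm7, -0.15 to 0.074 for Gins2 and -0.082 to 0.090 for Ccne1. In siPD-L1 against D5W they ran from -0.094 to 0.077 for Mcm3, -0.061 to 0.053 for Mcm4, -0.033 to 0.11 for Mcm6, -0.0067 to 0.079 for Mcm7 and -0.17 to 0.057 for Gins2, and in siPD-L1 against siNeg from -0.013 to 0.079 for Mcm2, -0.024 to 0.099 for Mcm3 and -0.086 to 0.024 for Gins2.

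Over all genes, calls against day 0 were 3691 in D5W, 3158 in siNeg and 3756 in siPD-L1 tumours. Counts over 1.5 times apart were 2361, 1774 and 2077 with library totals only, 2442 in D5W with GC content and length trends removed, 2320 and 2038 in D5W and siNeg with no filter, 2237 and 5953 in the fits of those groups, 6945 in siNeg with voom, and 2360 in D5W without siPD-L1 replicate 1 and D5W replicate 3. With single libraries left out they ran from 1350 to 4166, 1281 to 4333 and 1653 to 5066, lowest without day 0 replicate 1. They also moved by over 1.5 times without day 0 replicate 2 (2054, 1753 and 2069), without day 0 replicate 3 (2413 and 1987 in D5W and siNeg), without D5W replicate 3 (2036 in D5W) and without siNeg replicates 3 or 4 (2071 and 1968 in siNeg). The cause was not tested.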
